A study of Mus musculus with 24 samples.

Results

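The heat shock and unfolded protein response chaperones described here are 41 mouse genes, chosen by name from the 56748 genes of the deposited count table. They comprise the transcription factor Hsf1, the cytosolic HSP70, HSP110 and HSP90 proteins with their partners, 7 small heat shock proteins, 3 mitochondrial chaperones, 14 chaperones and disulfide isomerases of the endoplasmic reticulum (ER), and 4 genes of the unfolded protein response (UPR). All 41 were found in the table. Values come from 24 poly(A) RNA-seq libraries of primary cells isolated from the hindlimb muscle of mice less than 5 days old. The study asked what aldosterone, a steroid hormone, does to myotubes, and what those myotubes then pass on to fibroblasts through their culture medium. The 8 groups hold 3 biological replicates each. 4 groups are myotubes: mdx with aldosterone, mdx with vehicle, C57 with aldosterone and C57 with vehicle. The mdx cells come from C57BL/10-Dmdmdx mice, which carry a mutation in the dystrophin gene, and the C57 cells from C57BL/10 mice. Myotubes were given 1 µM aldosterone or 0.001% DMSO for 48 h in medium with charcoal-stripped horse serum, which is depleted of steroids. They then spent 15 h in fresh medium without hormone and were lysed after that medium, called conditioned medium, had been collected. The other 4 groups are fibroblasts kept for 24 h in this conditioned medium: mdx fibroblasts with medium of aldosterone-treated or of vehicle-treated mdx myotubes, and C57 fibroblasts with medium of aldosterone-treated or of vehicle-treated C57 myotubes. Fibroblasts therefore differ in genotype and in the genotype of the myotubes that made their medium, and these cannot be told apart.

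Cells hold their proteins in shape with chaperones, and a rise in unfolded protein switches on different genes in different compartments. In the cytosol and nucleus, the factor HSF1 binds heat shock elements and raises HSP70, HSP90, J proteins and small heat shock proteins. In the ER, the sensors ATF6, IRE1 with its target XBP1, and PERK with its effector ATF4 raise BiP (Hspa5), calreticulin, disulfide isomerases and degradation factors. Skeletal muscle carries a set of small heat shock proteins that associate with its contractile fibres, whereas fibroblasts secrete matrix proteins that are folded in the ER. Steroid receptors, the mineralocorticoid receptor that binds aldosterone among them, are kept ready for hormone in complexes with HSP90.

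Libraries held between 14133165 and 31144746 counts in myotubes and between 16964960 and 42698139 in fibroblasts, and the 41 genes took 1.18 to 1.36% of the counts in myotubes and 1.09 to 1.20% in fibroblasts. Levels are given as CPM, counts scaled to library size, on 1 scale over all 24 libraries. The deposited FPKM values, which also divide by transcript length, are used to compare genes with each other. The muscle and fibroblast markers separated the labelled cell types, although 1 of the 10 muscle markers stayed under 1 CPM in every myotube library. Macrophage markers summed to between 3.795 and 502.3 CPM in myotubes and between 7.99 and 25.2 CPM in fibroblasts. The summed level of 10 muscle markers ranged from 26140 to 43810 CPM in myotubes and from 16.4 to 166.5 CPM in fibroblasts, and that of 10 fibroblast markers from 832 to 6978 CPM in myotubes and from 17820 to 30180 CPM in fibroblasts. Several members share sequence with a copy or overlap a neighbour. Hspa1a and Hspa1b are near-identical copies, so reads can be split between them. Hspb2 and Cryab overlap by 1030 bases on opposite strands, Hspd1 and Hspe1 by 112, Dnaja1 and Smu1 by 608, and Manf overlaps Dcaf1 and Rbm15b, and the libraries do not keep strand. Values of these genes are uncertain to that extent.

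The sequences in front of the members' starts show which of the known stress elements they carry. RefSeq promoters on the build GRCm38.p6 matched 31 of the 41 members, and the 250 bases before each start were searched on both strands. The ER stress element, CCAAT and CCACG with 9 bases between them, was present before 7 of the 31 members and in 0.113% of all 32851 promoters of the same length. Its matches are set out here in the reading direction of the element, with the fixed letters in capitals, because all 7 genes encode folding proteins of the ER whose levels are compared below.
Hspa5: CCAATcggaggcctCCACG
Hsp90b1, nearer match: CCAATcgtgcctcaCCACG
Hsp90b1, farther match: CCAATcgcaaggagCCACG
Calr: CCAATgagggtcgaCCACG
Canx: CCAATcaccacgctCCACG
Dnajc3: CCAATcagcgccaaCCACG
Creld2: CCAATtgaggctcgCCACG
Pdia6: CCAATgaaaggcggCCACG
A heat shock element of 3 units, GAA, TTC and GAA with 2 bases between neighbours, was found before Hspd1 and Hspe1 and in 0.466% of all promoters. The Hspd1 match lies before a start 216 bases from that of Hspe1. Both genes are read away from each other from these starts, so the match is the same stretch of DNA. Hspd1 has a further start, whose window held no heat shock element. A member with several starts was counted if any of its windows matched, whereas the shares of all promoters count each promoter. A pair of units, GAANNTTC, was found before 8 members (Dnaja1, Hspa1a, Hspa1b, Hspb1, Hspb3, Hspb6, Hspd1 and Hspe1) and in 6.69% of all promoters. The other order of a pair, TTCNNGAA, was found before 5 members (Dnajb4, Hspd1, Hspe1, Hsph1 and Serp1) and in 7.17% of all promoters. Both pair motifs overlap the motif of 3 units and are counted again inside it. A steroid receptor element, GNACA and TGTNC with 3 bases between them, matched before 0 of the 31 members and in 0.387% of all promoters, and the ATF4 element TGATGNAA matched before Herpud1 alone and in 3.45% of all promoters. The windows of the members that lead the comparisons below are given in gene direction, ending at the base before the start, with the matches to the ER stress element or to heat shock elements in capitals.
Hspa5, chr2:34771990-34772089, plus strand: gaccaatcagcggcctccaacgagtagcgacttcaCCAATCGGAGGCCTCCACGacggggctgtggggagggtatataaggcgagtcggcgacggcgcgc
Hsp90b1, chr10:86705445-86705694, minus strand: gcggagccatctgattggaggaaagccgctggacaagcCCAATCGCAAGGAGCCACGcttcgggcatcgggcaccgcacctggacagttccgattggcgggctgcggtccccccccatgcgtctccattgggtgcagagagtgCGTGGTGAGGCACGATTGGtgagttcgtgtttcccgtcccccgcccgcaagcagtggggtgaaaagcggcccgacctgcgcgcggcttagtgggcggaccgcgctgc
Hspd1, chr1:55087933-55088132, minus strand: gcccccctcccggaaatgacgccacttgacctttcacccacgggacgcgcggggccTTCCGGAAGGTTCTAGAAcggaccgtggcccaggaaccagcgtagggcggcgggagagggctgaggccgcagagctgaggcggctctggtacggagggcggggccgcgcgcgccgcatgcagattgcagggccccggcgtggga
Hspb1, chr5:135887769-135887918, plus strand: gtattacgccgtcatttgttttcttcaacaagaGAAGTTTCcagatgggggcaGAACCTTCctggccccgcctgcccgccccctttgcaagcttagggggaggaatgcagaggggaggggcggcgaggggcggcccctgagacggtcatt
Hspa5 carries 1 ER stress element and Hsp90b1 carries 2, on opposite strands. Hspb1 carries 2 separate pairs of heat shock units, and in Hspd1 the overlapping units form 1 unbroken run. The windows of Hspa1a and Hspa1b were identical at 247 of 250 bases. A match is a run of letters, not a shown binding site, and a window without one says nothing of the factor.

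Myotubes and fibroblasts differed in which chaperones made up their transcripts. By deposited FPKM, small heat shock proteins made up 30.7 to 39.6% of the members' summed level in the 12 myotube libraries, against 5.69 to 6.98% in the 12 fibroblast libraries. ER chaperones made up 9.05 to 14.8% in myotubes, against 28.8 to 32.2% in fibroblasts, and disulfide isomerases 3.13 to 6.58% in myotubes, against 13.5 to 15.2% in fibroblasts. The libraries of the cell types did not overlap in any of these 3 classes. Nor did they overlap in cytosolic HSP90 (25.4 to 27.9% in myotubes, against 21.4 to 24.7% in fibroblasts). The same held for cytosolic J proteins with Bag3 (at most 2.23% against at least 3.17%) and for the UPR genes (at most 3.01% against at least 3.10%). Mitochondrial chaperones overlapped, with 6.40 to 8.31% in myotubes and 6.94 to 8.07% in fibroblasts, as did cytosolic HSP70 with HSP110, and Hsf1. A share also depends on the other classes. UPR genes summed to 103.7 ± 4.87 FPKM in C57 vehicle myotubes, against 100.6 ± 4.33 FPKM in C57 fibroblasts in vehicle medium (SD). J proteins with Bag3 summed to 88.6 FPKM in these myotubes, against 96.3 FPKM. Mitochondrial chaperones were higher in these myotubes, with 304.4 against 218.8 FPKM. So were HSP70 with HSP110 (439.3 against 338.1 FPKM) and Hsf1 (11.3 against 6.54 FPKM). In bulk RNA, fewer cells of a type and less RNA per cell cannot be told apart.

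**Figure D1:**
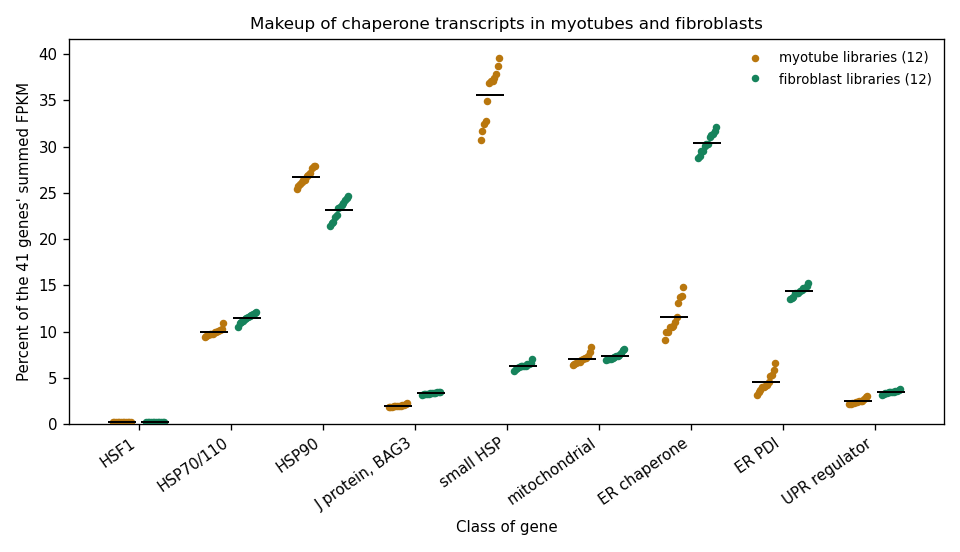
Percent of the 41 genes' summed FPKM held by each class of gene (vertical axis), with 1 point per library, 12 myotube libraries left of 12 fibroblast libraries and a black bar at the mean. Small heat shock proteins lie at 30.7 to 39.6% in myotubes against 5.69 to 6.98% in fibroblasts, and ER chaperones at 9.05 to 14.8% against 28.8 to 32.2%.

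The leading gene was Hsp90ab1, the constitutive cytosolic HSP90, in both cell types, with 1120.0 ± 45.2 FPKM in C57 vehicle myotubes and 576 ± 8.06 FPKM in C57 fibroblasts in vehicle medium (SD, n = 3 each). Below it the order parted. In C57 vehicle myotubes Hspb8, a small heat shock protein that works with BAG3 in clearing damaged muscle proteins, came next with 821 ± 36.9 FPKM. It was followed by Hspa8, the constitutive HSP70, with 345 ± 7.85 FPKM and by Cryab, the alphaB-crystallin of muscle Z-discs, with 325 ± 4.76 FPKM, whose libraries lay just below those of Hspa8. Hspb1 (HSP27) had 277 ± 3.75 FPKM and Hspb7 (cvHSP), a small heat shock protein of heart and skeletal muscle, 190.0 ± 17.9 FPKM. In C57 fibroblasts the genes after Hsp90ab1 were Calr (calreticulin), which binds newly made glycoproteins, with 292 ± 26 FPKM and Hspa8 with 261 ± 7.76 FPKM. The disulfide isomerase Pdia3, the partner of calreticulin, followed with 231 ± 9.53 FPKM, BiP (Hspa5) with 184 ± 14.5 FPKM and Hsp90b1, the HSP90 of the ER, with 146 ± 7.77 FPKM. Small heat shock proteins are thus 4 of the 6 leading members in C57 vehicle myotubes, and ER genes are 4 of the 6 in C57 fibroblasts.

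Of the 41 members, 16 were higher and 16 lower in C57 vehicle myotubes than in C57 fibroblasts in vehicle medium (edgeR's quasi-likelihood test, Benjamini-Hochberg adjusted p below 0.05 over all genes). In this comparison 74.7% of all 17864 genes tested were called, 36.7% higher and 38% lower, so the count of called members is near the background. In mdx cells 19 members were higher and 15 lower in vehicle myotubes, where 70.5% of all genes were called, 35.5% higher and 35.1% lower. In all, 16 members were higher and 15 lower in both lines, and 0 were called in opposite directions. The other 4 called members passed in 1 line alone: Canx in C57, and Dnaja1, Hspd1 and Dnajb9 in mdx.

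**Figure D2:**
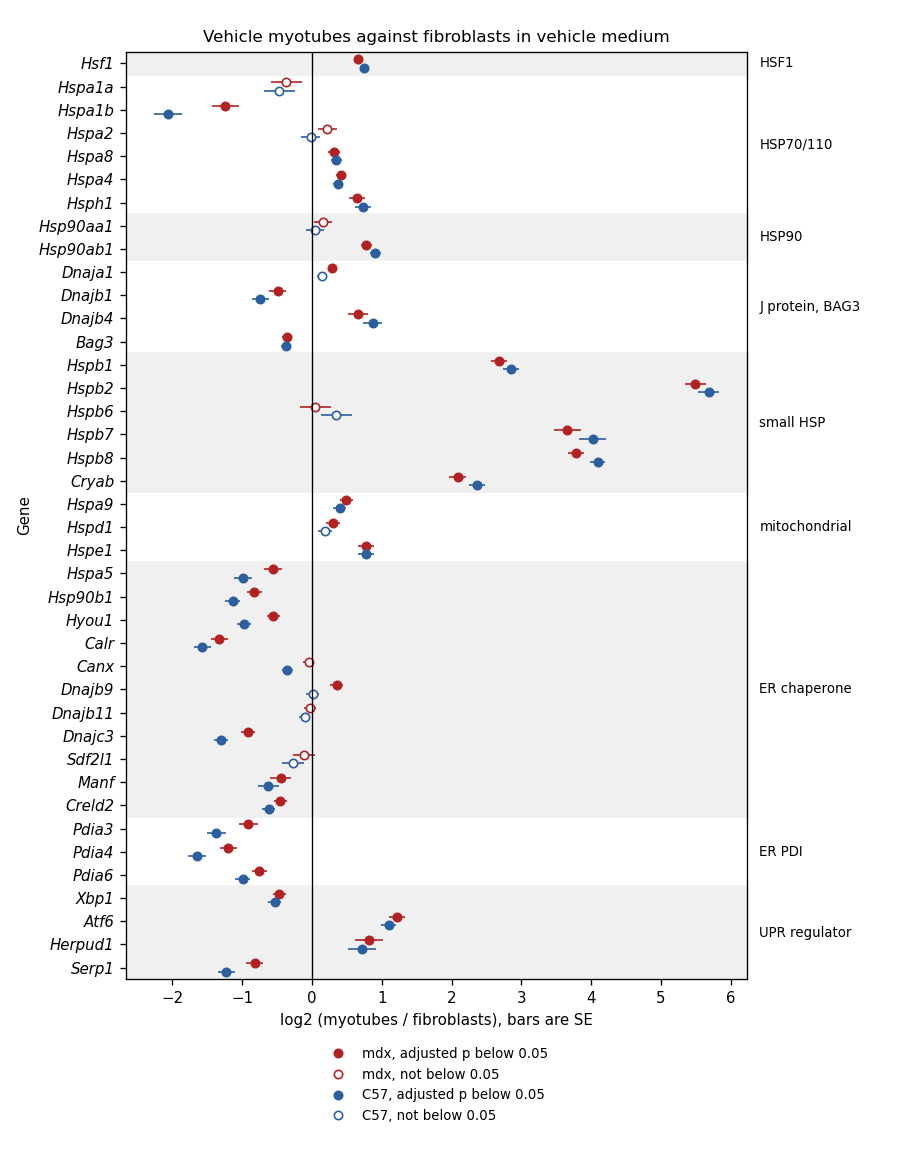
log2 change of vehicle myotubes against fibroblasts in vehicle medium (horizontal axis, bars are SE) for 40 members by class, mdx above C57 for each gene, filled where the adjusted p is below 0.05. Hspb3 is left out because its counts were at most 3 in each fibroblast library in vehicle medium. 5 of the 6 small heat shock proteins drawn lie far to the right, and most ER genes lie to the left.

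Among the small heat shock proteins 6 of 7 were higher in myotubes of both lines. Of all 17864 genes tested, 13337 were called in C57 and 12597 in mdx, higher or lower. Hspb1 (ENSMUSG00000004951, chr5:135916773-135918417, mm39) had 250.3, 199 and 217 CPM in mdx vehicle myotubes, against 33.2, 38.4 and 32.3 CPM in mdx fibroblasts in vehicle medium. It had 286, 278 and 283 CPM in C57 vehicle myotubes, against 38.9, 40.5 and 37.9 CPM in C57 fibroblasts (log2 change 2.85, SE 0.11, adjusted p = 6.48e-15). Every myotube library lay far above every fibroblast library of its line. Cryab had 479, 477 and 469 CPM in C57 vehicle myotubes, against 91.1, 87.9 and 97.3 CPM in C57 fibroblasts (log2 change 2.37, SE 0.12, adjusted p = 2.51e-13), again without overlap. Hspb7 had 576, 499 and 486 CPM in C57 vehicle myotubes, against 27.6, 30.3 and 38.2 CPM in C57 fibroblasts (log2 change 4.02, SE 0.20, adjusted p = 4.63e-13). The corresponding log2 changes in mdx cells were 2.68 for Hspb1, 2.09 for Cryab and 3.66 for Hspb7. Each of the 3 was nonetheless counted in every fibroblast library. Hspb8 had 1650.0, 1585 and 1514 CPM in C57 vehicle myotubes, against 100.3, 85.4 and 92.1 CPM in C57 fibroblasts (log2 change 4.10, SE 0.11, adjusted p = 2.49e-17). Hspb2, which partners Hspb3 in muscle, had 66.6, 74.3 and 70.8 CPM in C57 vehicle myotubes, against 1.3, 1.09 and 1.74 CPM in C57 fibroblasts (log2 change 5.68, SE 0.15, adjusted p = 1.35e-17). Hspb3 was counted 806, 1212 and 555 times in the C57 vehicle myotube libraries, against 3, 2 and 2 times in the C57 fibroblast libraries, too few for a fold. Hspb6 (HSP20) was the exception, with 75.2, 67.5 and 63.1 CPM in C57 vehicle myotubes, against 53, 48.4 and 60.2 CPM in C57 fibroblasts (log2 change 0.35, SE 0.22, adjusted p = 0.153), although the C57 groups did not overlap. In mdx cells Hspb6 spread from 56.3 to 94.5 CPM over the 3 vehicle myotube libraries and overlapped the fibroblasts.

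The cytosolic machinery split within its classes. Hsf1, the regulator of the heat shock response, had 81.3, 79.2 and 78.5 CPM in C57 vehicle myotubes, against 47.8, 47.1 and 48.2 CPM in C57 fibroblasts (log2 change 0.74, SE 0.06, adjusted p = 2.47e-10), and its log2 change in mdx cells was 0.65. The constitutive Hspa8 had 1432, 1491 and 1484 CPM in C57 vehicle myotubes, against 1198, 1146 and 1117 CPM in C57 fibroblasts (log2 change 0.35, SE 0.08, adjusted p = 0.000587). Hspa4 and Hsph1, HSP110 proteins that exchange the nucleotide of HSP70, were also higher, by 0.37 and 0.73 on the log2 scale in C57 cells, as was Hsp90ab1 by 0.90. The stress-inducible copy Hspa1b went the other way, with 6.44, 8.21 and 6.97 CPM in C57 vehicle myotubes, against 26.8, 34.7 and 29.2 CPM in C57 fibroblasts (log2 change -2.06, SE 0.20, adjusted p = 1.20e-08). Its near-identical copy Hspa1a had 5.46, 5.7 and 4.65 CPM in C57 vehicle myotubes, against 6.44, 8.64 and 6.95 CPM in C57 fibroblasts (log2 change -0.47, SE 0.22, adjusted p = 0.0574), which did not pass the test. All myotube libraries lay below all fibroblast libraries for both copies. Bag3, which links HSP70 to small heat shock proteins, had 106, 110.2 and 107 CPM in C57 vehicle myotubes, against 134, 142 and 142 CPM in C57 fibroblasts (log2 change -0.37, SE 0.07, adjusted p = 4.83e-05). Dnajb1, the J protein that drives HSP70, was lower by a log2 change of -0.74, while Dnajb4 was higher by 0.87. Hsp90aa1, the inducible HSP90, had 441, 439.7 and 464 CPM in C57 vehicle myotubes, against 470.5, 414 and 419 CPM in C57 fibroblasts, and the groups overlapped (log2 change 0.04, SE 0.13, adjusted p = 0.759).

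The mitochondrial chaperones were all positive, with 2 of 3 called in C57 and 3 of 3 in mdx cells, where 13337 and 12597 of all 17864 genes were called. Hspd1 (HSP60), which forms the folding chamber of mitochondria, had 302, 246 and 229 CPM in mdx vehicle myotubes, against 202, 213 and 218 CPM in mdx fibroblasts (log2 change 0.30, SE 0.10, adjusted p = 0.00954). This call was lost without mdx vehicle myotube replicate 1, the highest library (log2 change 0.17, adjusted p = 0.114). Its lid Hspe1 (HSP10), read from the shared promoter, was higher by 0.77 in C57 and 0.77 in mdx on the log2 scale. Hspa9 (mortalin), which pulls proteins into mitochondria, was higher by 0.40 and 0.49. Transcripts of the mitochondrial genome took 5.48 to 9.86% of the counts in the myotube libraries, against 1.48 to 1.97% in the fibroblast libraries. Their part in the result was not tested.

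The ER members were mostly lower in myotubes, with 8 of 11 chaperones and 3 of 3 disulfide isomerases called lower in C57 cells. In that comparison 13337 of all 17864 genes tested were called, higher or lower. Hspa5 (BiP; ENSMUSG00000026864, chr2:34661982-34667559, mm39), the HSP70 of the ER, had 613, 549 and 411 CPM in mdx vehicle myotubes, against 736, 737 and 838 CPM in mdx fibroblasts (log2 change -0.55, SE 0.13, adjusted p = 0.000721). It had 364, 421 and 427 CPM in C57 vehicle myotubes, against 734, 829 and 839 CPM in C57 fibroblasts (log2 change -0.99, SE 0.13, adjusted p = 7.36e-07), and every myotube library lay below every fibroblast library. Calr, with no overlap either, had 258, 306 and 307 CPM in C57 vehicle myotubes, against 817, 826 and 950.2 CPM in C57 fibroblasts (log2 change -1.57, SE 0.12, adjusted p = 1.47e-10). Hsp90b1 had 249, 289 and 289 CPM in C57 vehicle myotubes, against 579, 599 and 637 CPM in C57 fibroblasts (log2 change -1.13, SE 0.11, adjusted p = 4.85e-09). The isomerase Pdia4 had the lowest log2 change of the ER members in C57 cells (-1.65), followed by Calr, Pdia3 (-1.37) and Dnajc3 (-1.31), the J protein known as p58IPK. All 7 members with an ER stress element in the window were lower in C57 myotubes, with log2 changes between -1.57 (Calr) and -0.35 (Canx). Dnajc3 had 49.8, 58.8 and 58.1 CPM in C57 vehicle myotubes, against 134, 135 and 144 CPM in C57 fibroblasts. Pdia3 and Pdia4 were lower as well, with no match in their windows. Dnajb9, a J protein of ER-associated degradation, had 45.8, 38.1 and 37.7 CPM in mdx vehicle myotubes, against 33.5, 28.6 and 33.6 CPM in mdx fibroblasts (log2 change 0.35, SE 0.10, adjusted p = 0.00259). In C57 cells it had 34.2, 37.1 and 32.2 CPM in vehicle myotubes, against 34.9, 33.8 and 34.2 CPM in fibroblasts, with overlap (log2 change 0.01, SE 0.09, adjusted p = 0.921). Manf, a secreted ER stress factor, was lower in mdx cells too (log2 change -0.45, SE 0.15, adjusted p = 0.0126), and that call was lost without mdx fibroblast replicate 3 in vehicle medium, or without mdx vehicle myotube replicate 2 or 3 (adjusted p = 0.0615, 0.0516 and 0.0728).

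The UPR regulators did not follow the chaperones as a block. Xbp1, the factor made by IRE1 splicing, had 63, 76.6 and 68.1 CPM in C57 vehicle myotubes, against 96, 99.3 and 106 CPM in C57 fibroblasts (log2 change -0.54, SE 0.09, adjusted p = 2.48e-05). Atf6, the membrane-bound factor that binds the ER stress element, was higher in myotubes, with 199.6, 169.9 and 180.2 CPM in C57 vehicle myotubes, against 90.3, 85.7 and 80.5 CPM in C57 fibroblasts (log2 change 1.10, SE 0.11, adjusted p = 1.39e-08). Herpud1, a scaffold of ER-associated degradation, had 124, 105 and 96.9 CPM in C57 vehicle myotubes, against 61, 67.1 and 70.0 CPM in C57 fibroblasts (log2 change 0.72, SE 0.20, adjusted p = 0.00306). Both Atf6 and Herpud1 were higher in every vehicle myotube library than in any fibroblast library of the same line. Serp1, which steadies newly made membrane proteins, was lower (-1.23 on the log2 scale).

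Other genes of the same pathways were counted beside the 41, in the C57 comparison where 13337 of all 17864 genes tested were called. Of 39 other cytosolic chaperones and co-chaperones, 30 were higher and 4 lower in C57 vehicle myotubes, and of 9 other mitochondrial chaperones 9 were higher. Of 50 other tested ER folding, quality control and UPR genes, 42 were lower and 4 higher, with a median log2 change of -1.01, against -0.03 over all genes. The myosin chaperone Unc45b, the HSP70 exchange factor Bag1 (2.34) and the J proteins Dnaja4 (2.51) and Dnajb6 (1.48) led the cytosolic list. Wfs1 (wolframin), an ER membrane protein that holds ATF6 in check, was 1 of the 4 ER genes that were higher in C57 vehicle myotubes (log2 change 3.14, SE 0.13, adjusted p = 8.77e-15). Of 12 genes of the ATF4 and CHOP branch, 7 were higher and 4 lower in C57. Macrophage markers were higher in 9 of 10 and endothelial markers in 7 of 9 tested. Muscle markers were higher in 9 of 9 tested and fibroblast markers lower in 10 of 10 in the same comparison. Their part in the result was not tested.

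With aldosterone, 13 of the 41 members passed in the mean of both myotube lines when cultures of the same replicate number were compared, and 0 passed without that pairing (edgeR fit to all 12 libraries). Without pairing, 0 of the 41 members passed in C57, in mdx or in their mean, where 0.0127%, 0% and 0.216% of the 15763 genes tested were called (in the mean 0.114% higher and 0.102% lower). At an unadjusted p below 0.05 there were 3, 2 and 4 members, where 4.97%, 3.44% and 7.4% of all genes lay below it, and DESeq2 called 0, 0 and 2 (Hspb1 and Hspb8). With the replicate number as a block, 6 members were higher and 1 lower in C57 (4.98% of all genes called, 2.52% higher and 2.46% lower). In mdx 1 was higher and 1 lower (2.33%, 1.01% higher and 1.32% lower). In the mean of both lines 12 were higher and 1 lower (8.96%, 4.4% higher and 4.56% lower). The members' median log2 change in the mean was 0.09, against 0.01 over all genes. By culture, 17 members were higher with aldosterone in all 6 cultures, 1 was lower in all 6 and 23 were mixed, where 6.8% of all genes tested were higher and 6.83% lower in all 6. The numbers pair the myotube libraries by a check on the data: deviations of same-numbered libraries correlated at 0.47 or more in mdx, where libraries of different numbers reached at most -0.158. In C57 the lowest same-numbered correlation was 0.36, just above the highest between different numbers, 0.353.

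**Figure D3:**
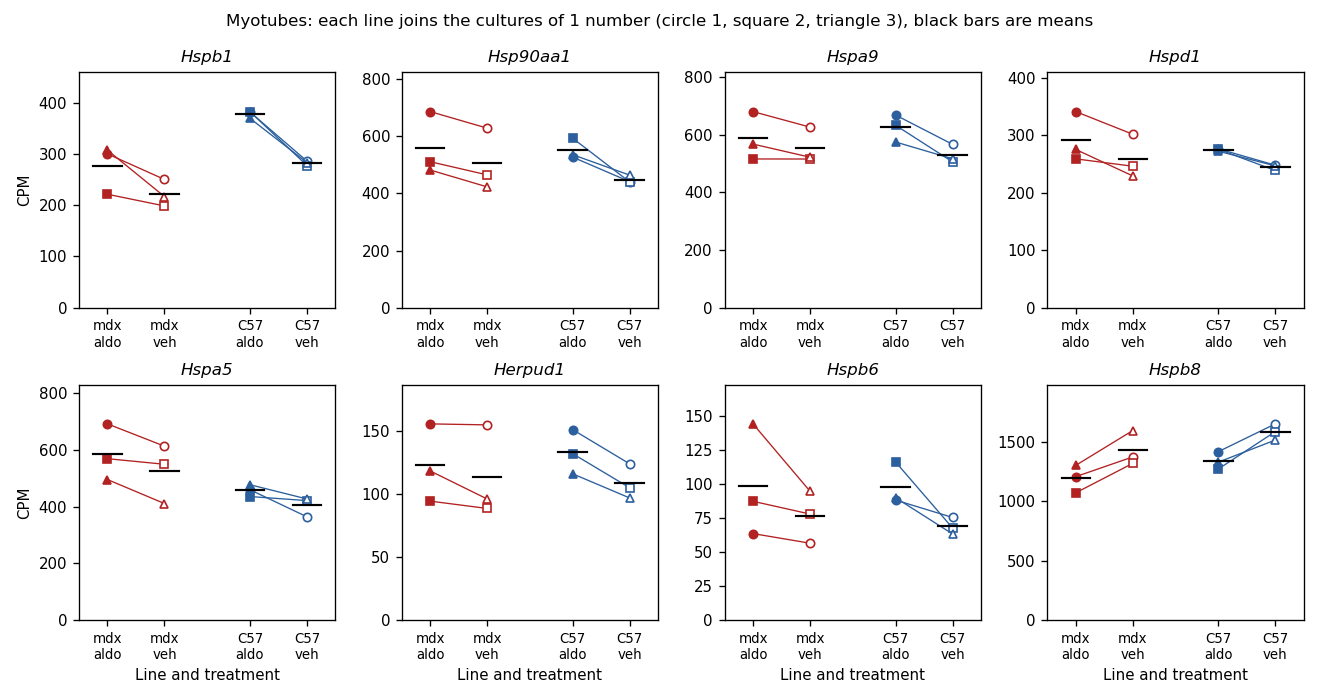
CPM of 8 members in each myotube library (vertical axis from 0), mdx left of C57 and aldosterone left of vehicle, with lines joining cultures of 1 number and black bars at the means. Hspb1 is higher with aldosterone in 6 of 6 cultures and Hspb8 is lower in 6 of 6.

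The clearest changes were in small heat shock proteins, and in both directions. Hspb1 had 300.2, 221 and 308 CPM in mdx myotubes with aldosterone, against 250.3, 199 and 217 CPM with vehicle (paired log2 change 0.30, SE 0.06, adjusted p = 0.00621). In C57 myotubes it had 382, 383 and 369.6 CPM with aldosterone, against 286, 278 and 283 CPM with vehicle (paired log2 change 0.43, SE 0.06, adjusted p = 8.03e-05). The C57 groups did not overlap, the mdx groups did, and the mdx call was lost without mdx culture 3 (log2 change 0.21, adjusted p = 0.291). In the mean of both lines Hspb1 rose by 0.37 on the log2 scale (SE 0.04, paired adjusted p = 3.09e-06, unpaired 0.138), higher in 6 of 6 cultures. Without the mdx aldosterone library of replicate 2, the unpaired mean passed as well (log2 change 0.43, adjusted p = 0.0291).

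Hspb8 had 1206, 1070.0 and 1301 CPM in mdx myotubes with aldosterone, against 1372, 1318 and 1594 CPM with vehicle (paired log2 change -0.26, SE 0.06, adjusted p = 0.0141). It had 1416, 1270.0 and 1328 CPM in C57 myotubes with aldosterone, against 1650.0, 1585 and 1514 CPM with vehicle (paired log2 change -0.24, SE 0.06, adjusted p = 0.0163). The groups of both lines were apart, with every aldosterone library below every vehicle library of its line. Its mean change was -0.25 (paired adjusted p = 0.000239). The call was lost in mdx without culture 2 or 3 (adjusted p = 0.195 and 0.248) and in C57 without culture 1 or 3 (adjusted p = 0.0906 and 0.0522). Hspb6 had 63.4, 87.1 and 144 CPM in mdx myotubes with aldosterone, against 56.3, 77.7 and 94.5 CPM with vehicle, and 88, 116 and 89.7 CPM in C57 myotubes with aldosterone, against 75.2, 67.5 and 63.1 CPM with vehicle. It was higher in 6 of 6 cultures, passed in the paired mean (log2 change 0.42, SE 0.08, adjusted p = 0.0215), and did not pass without C57 culture 3 (adjusted p = 0.0938). Cryab had 429, 369 and 430.5 CPM in mdx myotubes with aldosterone, against 457, 379.6 and 392 CPM with vehicle, and 531, 695 and 495 CPM in C57 myotubes with aldosterone, against 479, 477 and 469 CPM with vehicle. The C57 libraries did not overlap and the mdx libraries did, but Cryab passed in neither line (paired adjusted p = 0.0705 in C57), nor did the difference between lines (-0.27, SE 0.11, adjusted p = 0.929). Hspb7 and Hspb2 did not pass, with mean changes of -0.03 and -0.12, nor did Hspb3 (-0.16, adjusted p = 0.058).

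Among cytosolic chaperones the inducible Hsp90aa1 rose. It had 686, 511 and 482 CPM in mdx myotubes with aldosterone, against 628, 465 and 423 CPM with vehicle, and 527, 593 and 535 CPM in C57 myotubes with aldosterone, against 441, 439.7 and 464 CPM with vehicle. All C57 aldosterone libraries were above the vehicle libraries, while the mdx libraries were spread by culture, with culture 1 high under both treatments. The paired test passed in C57 (log2 change 0.30, SE 0.06, adjusted p = 0.00197) and in the mean (log2 change 0.23, SE 0.04, adjusted p = 0.00066) and missed in mdx (log2 change 0.15, SE 0.06, adjusted p = 0.247). Its constitutive counterpart Hsp90ab1 had a mean change of 0.01 (adjusted p = 0.967) and was higher in 2 of 6 cultures. Hsph1 passed in C57 alone (log2 change 0.19, SE 0.05, adjusted p = 0.0454), and that call was lost without any 1 of the C57 cultures (adjusted p 0.0960 to 0.193). Hspa8 (0.08), Bag3 (-0.04), Hsf1 (0.02) and the inducible copies Hspa1a (-0.10) and Hspa1b (-0.08) did not pass in the paired mean, nor did any of the 3 J proteins. Dnajb1 was higher in 6 of 6 cultures with an adjusted p of 0.0523.

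Mitochondrial Hspd1 had 341, 259 and 276 CPM in mdx myotubes with aldosterone, against 302, 246 and 229 CPM with vehicle, and 277, 276 and 272 CPM in C57 myotubes with aldosterone, against 248, 239 and 247 CPM with vehicle. It was higher in 6 of 6 cultures, without overlap in C57, and passed in the paired mean (log2 change 0.17, SE 0.04, adjusted p = 0.00586) but not without mdx culture 3 (adjusted p = 0.0701). Hspa9 had 680.4, 516 and 568 CPM in mdx myotubes with aldosterone, against 627, 516 and 522 CPM with vehicle, and 669, 633 and 575 CPM in C57 myotubes with aldosterone, against 567, 506 and 517 CPM with vehicle. It was higher in 6 of 6 cultures, though in mdx culture 2 by less than the printed digits show. Hspa9 passed in C57 (log2 change 0.24, SE 0.06, adjusted p = 0.011) and in the mean (log2 change 0.16, SE 0.04, adjusted p = 0.0121). The C57 call was lost without culture 1 or 2 (adjusted p = 0.0786 and 0.0587), and the mean without mdx culture 1 or 3 (adjusted p = 0.0630 and 0.0886). Hspe1, on the shared promoter, did not pass (mean change 0.09, adjusted p = 0.295).

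**Figure D4:**
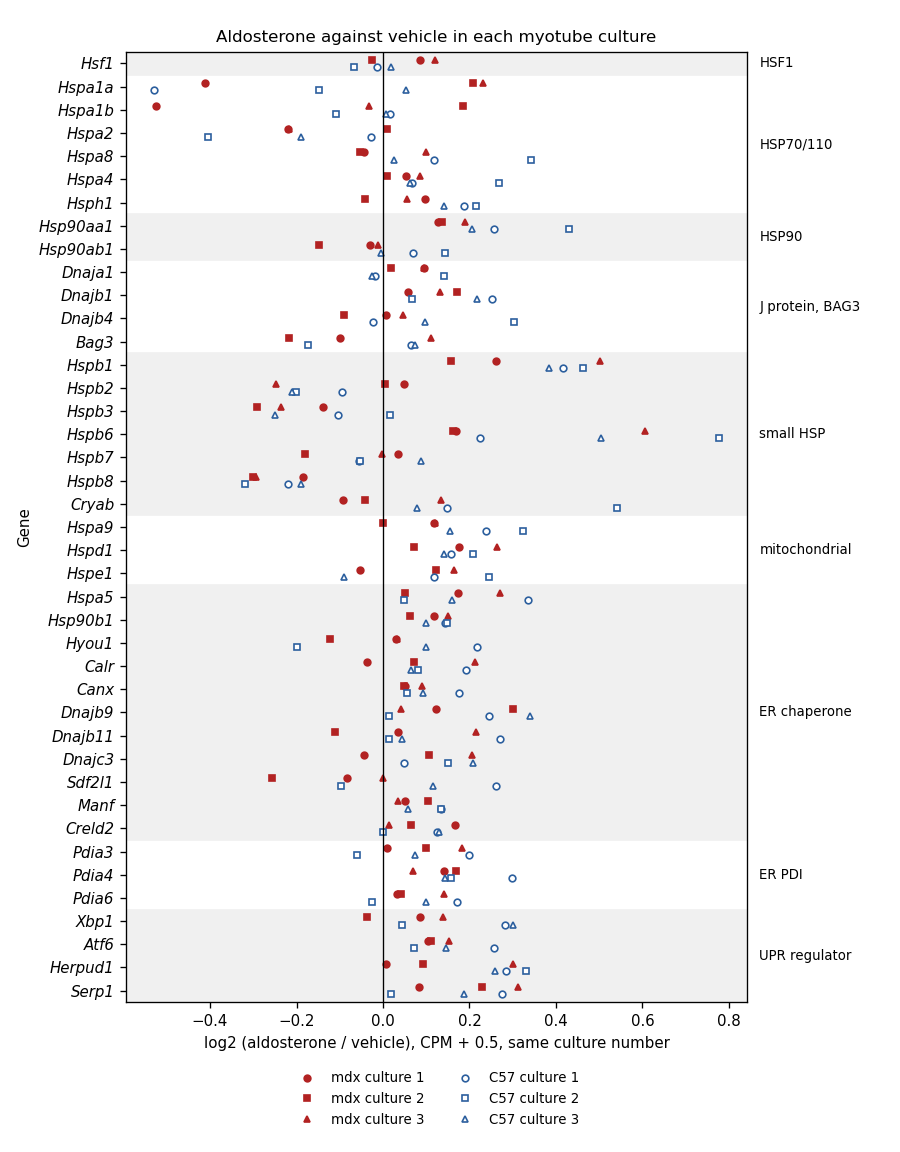
log2 ratio of aldosterone to vehicle in each myotube culture (horizontal axis, CPM + 0.5, libraries of the same replicate number) for all 41 members by class, 3 mdx cultures above 3 C57 cultures. 17 members lie right of 0 in all 6 cultures, as do 6.8% of all genes tested, and Hspb8 lies left of 0 in all 6.

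Of the 11 ER chaperones 10 were positive in the paired mean and 3 passed, and of the 3 isomerases 1 passed. Over all genes tested 1412 were called in that mean, higher or lower, and the share with a positive change is not given here. Hspa5 had 692, 569 and 495 CPM in mdx myotubes with aldosterone, against 613, 549 and 411 CPM with vehicle, and 459, 435 and 477 CPM in C57 myotubes with aldosterone, against 364, 421 and 427 CPM with vehicle. The mdx groups overlapped and the C57 groups did not. Hspa5 was higher in 6 of 6 cultures and passed in the paired mean (log2 change 0.17, SE 0.04, adjusted p = 0.0107), but not without C57 culture 1 or mdx culture 3 (adjusted p = 0.0876 and 0.108). Of the other ER chaperones and isomerases, Hsp90b1 (log2 change 0.12, SE 0.04, adjusted p = 0.0448), Dnajb9 (log2 change 0.18, SE 0.05, adjusted p = 0.036) and Pdia4 (log2 change 0.17, SE 0.04, adjusted p = 0.0125) passed in the paired mean. Hsp90b1 lost its call without C57 culture 1 or 3 or without any 1 mdx culture (adjusted p 0.0666 to 0.193), and Dnajb9 without the same cultures (adjusted p 0.0568 to 0.216). Pdia4 lost it without C57 culture 1 or without mdx culture 1 or 2 (adjusted p = 0.0658, 0.0550 and 0.0794). Pdia4 also passed in C57 alone (log2 change 0.21, SE 0.06, adjusted p = 0.043), but not without C57 culture 1 or 3 (adjusted p = 0.316 and 0.0869). Calr (0.10), Canx (0.09), Manf (0.09), Creld2 (0.09) and Pdia6 (0.08) had positive mean changes that did not pass. Of the 7 members with an ER stress element, 2 passed in the paired mean, Hspa5 and Hsp90b1.

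Herpud1 led the UPR group. It had 156, 94.4 and 118 CPM in mdx myotubes with aldosterone, against 155, 88.6 and 96.1 CPM with vehicle, and 151, 132 and 116 CPM in C57 myotubes with aldosterone, against 124, 105 and 96.9 CPM with vehicle. The groups overlapped in both lines, yet each culture was higher with aldosterone. The paired test passed in C57 (log2 change 0.30, SE 0.06, adjusted p = 0.00321) and in the mean (log2 change 0.21, SE 0.04, adjusted p = 0.00184). Serp1 had 112, 114 and 89.7 CPM in mdx myotubes with aldosterone, against 106, 97.2 and 72.1 CPM with vehicle, and 68.6, 77.9 and 81.7 CPM in C57 myotubes with aldosterone, against 56.6, 76.9 and 71.6 CPM with vehicle. Serp1 (log2 change 0.18, SE 0.05, adjusted p = 0.0108) and Atf6 (log2 change 0.14, SE 0.04, adjusted p = 0.0236) were higher in 6 of 6 cultures and passed in the paired mean. Atf6 lost its call without C57 culture 1 or 3 or any 1 mdx culture (adjusted p 0.0547 to 0.125), and Serp1 without C57 culture 1 or without mdx culture 2 or 3 (adjusted p 0.0583 to 0.0893). Xbp1 did not pass (log2 change 0.14, SE 0.05, adjusted p = 0.0607). Hspb1, Hsp90aa1, Herpud1 and Hspb8 kept their call in the paired mean in all 10 alternatives tried with pairing, leaving out each culture included. In the edgeR mean without pairing 0 members passed.

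The change with aldosterone was not shown to differ between lines for any member. In the paired test of mdx change minus C57 change, 0 of 41 members and 0.0444% of all genes passed (0.0381% higher and 0.00634% lower). At an unadjusted p below 0.05 there were 2 members, where 5.3% of all genes lay below it. DESeq2 called 0 members, and the difference for Hspb1 was -0.12 (SE 0.09, adjusted p = 0.96). Of the other pathway genes, 10 of 12 in the ATF4 and CHOP branch were higher in the paired mean. Over all genes tested, 1412 were called in that mean, higher or lower, and 34 without pairing. The list was chosen with earlier results of these data known. Among the 10 were Trib3 (log2 change 0.50, SE 0.05, adjusted p = 4.32e-07), which binds ATF4, and Chac1 (log2 change 0.48, SE 0.06, adjusted p = 3.25e-06), a glutathione-degrading enzyme. Atf4 itself rose by 0.28 and Ppp1r15a (GADD34), which reverses the PERK signal, by 0.35. Of 39 other cytosolic chaperones and co-chaperones 3 were higher and 4 lower. Fkbp5, an HSP90 partner that steroid receptors are known to induce, had 23.8 ± 1.49 CPM in mdx myotubes with aldosterone, against 18.7 ± 2.29 CPM with vehicle, and 25.5 ± 0.513 CPM in C57 myotubes with aldosterone, against 17.2 ± 0.892 CPM with vehicle (SD, n = 3 each). It passed in the mean without pairing too (log2 change 0.46, SE 0.07, adjusted p = 0.02). Of 50 other ER genes 3 were higher and 1 lower, and the lower one, Wfs1, passed without pairing (log2 change -0.59, SE 0.10, adjusted p = 0.0476). Among 9 other mitochondrial chaperones, 0 passed in the paired mean, 2 had an unadjusted p below 0.05, as did 21.4% of all genes, and 9 were positive.

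Markers of other cells moved with treatment in some cultures. The 10 macrophage markers were all positive in mdx, 5 of them called with pairing, and all negative in C57, 1 of them called. Their summed level was 3.98 to 205.9 CPM in mdx myotubes with aldosterone, against 3.79 to 43.2 CPM with vehicle, and 12.1 to 395.1 CPM in C57 myotubes with aldosterone, against 13.4 to 502.3 CPM with vehicle, and 0 of the 10 were at 0 in every myotube library. The mdx difference is that of culture 2, and without that culture 8 members passed in the paired mean and 1 in mdx (Hspb1). Genes passing over all were then 836 and 101, against 1412 and 367 with all cultures. In the paired mean 3 of 9 muscle markers and 2 of 10 fibroblast markers were lower. Their part in the result was not tested.

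In fibroblasts, 0 of the 40 members tested passed with medium from aldosterone-treated myotubes, in either genotype or in the mean, with the replicate number as a block or without. Of all 16671 genes, 0% were called in C57, 0% in mdx and 0.012% in the mean (0.006% in each direction). With the replicate number as a block it was 0%, 0% and 0.018% (0.012% higher and 0.006% lower). By a threshold of 0.1 on their correlation, the numbers pair the libraries in mdx fibroblasts, narrowly (lowest 0.112), but not in C57 (lowest -0.015). Hspb3 was filtered out for low counts. At an unadjusted p below 0.05 there were 1 member in C57, 0 in mdx and 2 in the mean (Hspa9 and Dnajb4), where 12%, 4.91% and 15.2% of all genes lay below it. With the block in mdx there were 0 members and 6.96% of all genes below it. The block was fitted in C57 too, although by that correlation threshold the numbers do not pair those libraries. The members below that threshold were then Hspb6, Hspa9, Hspe1, Hspa5, Hyou1, Calr, Manf, Pdia4, Pdia6, Herpud1 and Serp1. Of these Hyou1 alone was negative, and Herpud1 had the largest log2 change (0.30, SE 0.07, adjusted p = 0.0926). None of them passed. The share of all genes below that threshold in this fit is not given here, so the list is no result about the members. DESeq2 without the block called 0 members in C57, in mdx and in the mean, and 74, 0 and 293 of all genes. Hspa9 had 425, 388 and 420.2 CPM in mdx fibroblasts with aldosterone medium, against 396, 396 and 394 CPM with vehicle medium, and 446, 470.3 and 452 CPM in C57 fibroblasts with aldosterone medium, against 397, 414 and 398 CPM with vehicle medium. The C57 groups did not overlap and the mdx groups did (mean log2 change 0.11, SE 0.04, adjusted p = 0.239). Herpud1 had 79.8, 53.8 and 78 CPM in mdx fibroblasts with aldosterone medium, against 68.1, 58.5 and 67.6 CPM with vehicle medium. In C57 fibroblasts it had 76.4, 86.4 and 80.5 CPM with aldosterone medium, against 61, 67.1 and 70.0 CPM with vehicle medium, without overlap in C57, and its mean change did not pass (log2 change 0.20, SE 0.10, adjusted p = 0.362). The small heat shock proteins that moved in myotubes had mean changes of -0.04 (Hspb1, SE 0.06), 0.03 (Hspb8, SE 0.05) and 0.10 (Hspb6, SE 0.06) in fibroblasts. Hsp90aa1 changed by 0.00 (SE 0.05). The members' median was 0.05, against 0.00 over all genes. Leaving out mdx fibroblast replicate 2 in aldosterone medium brought the count in the mean to 1 member, with 950 genes called over all. Of the other pathway lists 0 genes passed, while in the mean 17 of 50 other ER genes and 7 of 12 genes of the ATF4 and CHOP branch had an unadjusted p below 0.05, as did 15.2% of all genes.

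The mdx and C57 lines were compared within each cell type and treatment. In myotubes 0 of 41 members passed, with vehicle (0.362% of all genes called, 0.14% higher and 0.222% lower) or with aldosterone (0.311%, 0.121% higher and 0.19% lower). At an unadjusted p below 0.05 there were 14 members with vehicle and 13 with aldosterone, where 14.4% and 15.7% of all genes lay below it. DESeq2 called 0 and 3 members, and 376 and 460 of all genes. With vehicle the classes lay on opposite sides of 0. All 11 ER chaperones and 3 of 3 isomerases were positive, with medians of 0.23 and 0.43 on the log2 scale, and 6 of 7 small heat shock proteins were negative, with a median of -0.25. The median over all genes was -0.00.

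Pdia3 had 433, 487 and 324 CPM in mdx vehicle myotubes, against 244, 312 and 310.3 CPM in C57 vehicle myotubes (log2 change 0.51, SE 0.17, adjusted p = 0.228). Hspa5 had 613, 549 and 411 CPM in mdx vehicle myotubes, against 364, 421 and 427 CPM in C57 vehicle myotubes (log2 change 0.37, SE 0.15, adjusted p = 0.305). In both genes mdx culture 3 was the lowest of its group, inside the C57 range for Hspa5 and just above it for Pdia3. Hspb3 had 26.5, 29.7 and 33.8 CPM in mdx vehicle myotubes, against 37.6, 41.1 and 40.3 CPM in C57 vehicle myotubes (log2 change -0.42, SE 0.12, adjusted p = 0.167). With aldosterone Hspb3 had 24, 24.2 and 28.6 CPM in mdx myotubes, against 35, 41.6 and 33.8 CPM in C57 myotubes (log2 change -0.54, SE 0.12, adjusted p = 0.0924). Hspb1 had 300.2, 221 and 308 CPM in mdx myotubes with aldosterone, against 382, 383 and 369.6 CPM in C57 with aldosterone (log2 change -0.47, SE 0.12, adjusted p = 0.134). Hspb1 was lower in mdx with vehicle too (log2 change -0.36, SE 0.12, adjusted p = 0.225), as was Cryab with aldosterone (log2 change -0.51, SE 0.13, adjusted p = 0.137). For Hspb3 and Hspb1 under both treatments, the mdx libraries were all lower than the C57 libraries. Hspa1b had 10.5, 14.8 and 10.5 CPM in mdx vehicle myotubes, against 6.44, 8.21 and 6.97 CPM in C57 vehicle myotubes (log2 change 0.71, SE 0.27, adjusted p = 0.281), higher in every mdx library.

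Marker genes of other cells differed between the lines too. The summed fibroblast markers were 2590 to 6177 CPM in mdx vehicle myotubes, against 832 to 2360 CPM in C57 vehicle myotubes, and 9 of 10 were positive with 0 called. The summed muscle markers were 28350 to 39900 CPM in mdx vehicle myotubes, against 38600 to 43810 CPM in C57, and 9 of 9 tested were negative with 0 called. The 10 macrophage and 9 tested endothelial markers were all negative with 0 called. 0 of the 10 genes of any list were at 0 in every myotube library. Their part in the result was not tested. Of 50 other ER genes 44 were positive with vehicle, with a median of 0.24, and 0 passed.

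**Figure D5:**
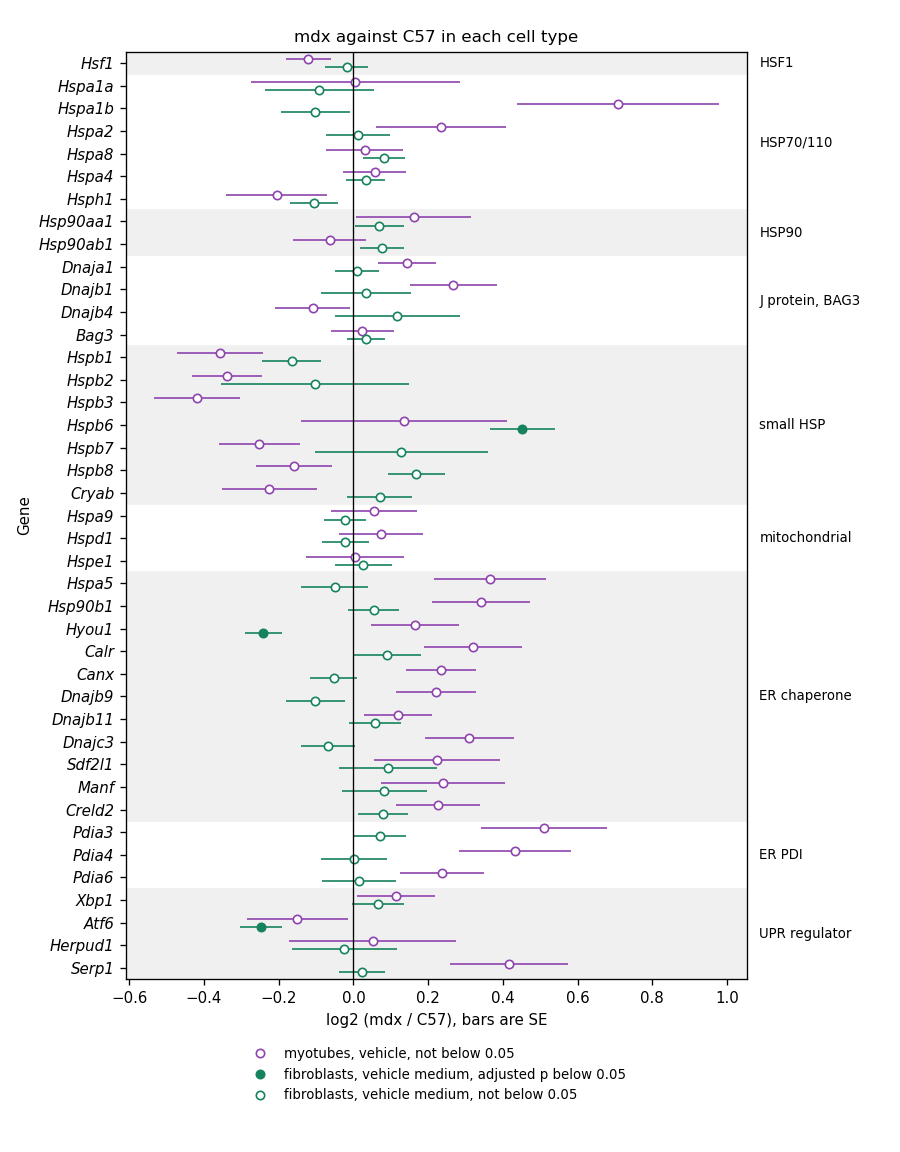
log2 change of mdx against C57 (horizontal axis, bars are SE) for the members by class, vehicle myotubes above fibroblasts in vehicle medium, filled where the adjusted p is below 0.05. In myotubes no point is filled, ER chaperones and isomerases lie right of 0 and 6 of 7 small heat shock proteins left, and in fibroblasts Hspb6, Hyou1 and Atf6 are filled.

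In fibroblasts 3 of 40 members differed between the lines with vehicle medium (1.1% of all genes called, 0.516% higher and 0.588% lower) and 1 with aldosterone medium (1.23%, 0.594% higher and 0.636% lower). Hspb6 had 66.9, 76.6 and 76.5 CPM in mdx fibroblasts, against 53, 48.4 and 60.2 CPM in C57 fibroblasts in vehicle medium (log2 change 0.45, SE 0.09, adjusted p = 0.0176). In aldosterone medium it had 69.5, 85 and 79.5 CPM in mdx fibroblasts, against 61.5, 53.8 and 61 CPM in C57 fibroblasts (log2 change 0.40, SE 0.09, adjusted p = 0.0366). Every mdx library lay above every C57 library under both media. Hyou1, the HSP110 of the ER, had 191, 201 and 208 CPM in mdx fibroblasts, against 239, 229 and 243 CPM in C57 fibroblasts in vehicle medium (log2 change -0.24, SE 0.05, adjusted p = 0.0307). Atf6 had 69.1, 72.2 and 73.9 CPM in mdx fibroblasts, against 90.3, 85.7 and 80.5 CPM in C57 fibroblasts in vehicle medium (log2 change -0.25, SE 0.06, adjusted p = 0.0459). Neither overlapped. In aldosterone medium the log2 changes were -0.14 for Hyou1 and -0.11 for Atf6, which did not pass. Hspb6 lost its call in vehicle medium without C57 replicate 1 or 2 or mdx replicate 2 or 3 (adjusted p 0.0767 to 0.102), and in aldosterone medium without any 1 C57 replicate or without mdx replicate 2 or 3 (adjusted p 0.0907 to 0.172). Hyou1 lost it without any 1 of the vehicle medium libraries other than mdx replicate 3 (adjusted p 0.0720 to 0.148), and Atf6 without any 1 other than C57 replicate 3 (adjusted p 0.0907 to 0.192). In the fit on these groups alone, Hyou1 (adjusted p = 0.0824) and Atf6 (0.0892) did not pass. Hspb8 was higher in mdx fibroblasts by 0.29 in aldosterone medium and did not pass (adjusted p = 0.0822). In vehicle medium the macrophage markers summed to 7.99 to 10.4 CPM in mdx fibroblasts, against 12 to 18.7 CPM in C57 fibroblasts, and the muscle markers to 17.0 to 54.3 CPM in mdx, against 30.1 to 128.5 CPM in C57. The fibroblast markers summed to 19800 to 23000 CPM in mdx fibroblasts, against 17820 to 25510 CPM in C57 fibroblasts. 0 were called in any of these lists, and 7 of the 10 macrophage markers stayed under 1 CPM in every fibroblast library. Their part in the result was not tested.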

How the data were processed

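The authors deposited raw gene counts and FPKM in 1 table of 24 libraries. Counts were made with featureCounts 1.5.0-p3 on mm39, per the submitters' processing notes (aligner and annotation: not given in the sources used here). Per the labels' protocols, libraries were poly(A)-selected and do not keep strand. The FPKM values were used as the authors deposited them, to compare genes and classes.

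From the counts, edgeR 4.0.16 (R 4.3.3, limma 3.58.1) fitted TMM-scaled quasi-likelihood models, after its default filter on low counts, to all 12 libraries of a cell type, or to all 24 for myotubes against fibroblasts. A call is a Benjamini-Hochberg adjusted p below 0.05 over all genes tested. Printed CPM use TMM factors over the 24 libraries. The fit is without a replicate block. A paired fit adds it. Same-numbered myotube libraries deviated together (r of 0.702, 0.494 and 0.36 in C57, and 0.669, 0.607 and 0.47 in mdx), as did mdx fibroblasts (0.182, 0.31 and 0.112), by a threshold of 0.1. C57 fibroblasts did not (-0.015, 0.13 and 0.09), nor did the groups of the other comparisons. The labels call the replicates biological and do not say whether they are separate animals or litters, so p-values measure the spread between these samples, which may be technical. "Culture" means a replicate number of myotubes. The scripts were tested on simulated data.

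The members and gene lists were chosen with earlier results of these data known. By rule, library values are given for members called in either fit (up to 8 per comparison by p) and for 16 members named for their role, and up to 4 called genes per comparison from each other list. Library values of Hspb6 with aldosterone, Hspa9 in fibroblasts, and Pdia3 and Hspb3 with vehicle were added after they were seen. DESeq2 1.42.0, RLE scaling, no filter, a stricter filter (1 CPM in 6 libraries), fits on the compared groups alone and leaving out each replicate were alternatives. Promoters are RefSeq's, on GRCm38.p6, a different build from the counts.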

Additional observations from a re-analysis of the deposited data

Results flagged for a closer look

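Dnajb9, a J protein of the ER, lay above C57 in mdx myotubes and below C57 in mdx fibroblasts, in changes that did not pass. All members were searched for such a pattern over several pairs of comparisons, and its share over all genes was not counted. With vehicle it had 45.8, 38.1 and 37.7 CPM in mdx myotubes, against 34.2, 37.1 and 32.2 CPM in C57 myotubes, every mdx library above every C57 library. In vehicle medium it had 33.5, 28.6 and 33.6 CPM in mdx fibroblasts, against 34.9, 33.8 and 34.2 CPM in C57 fibroblasts, every mdx library below every C57 library. The changes differed by 0.32 on the log2 scale. Opposite directions without overlap drew attention to the gene, and that observation is itself no test. In a fit over all 24 libraries, chosen after seeing the data, the difference was 0.34 (SE 0.13, adjusted p = 0.299), and 0 members passed while 0.230% of all genes did. Neither change passed alone (log2 change 0.22, SE 0.11, adjusted p = 0.367 in myotubes and log2 change -0.10, SE 0.08, adjusted p = 0.693 in fibroblasts).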

How the results depend on the processing

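No called change of a member changed direction under any alternative tried. Over all 41 members, called or not, 576 of 9020 log2 changes under alternatives had another sign than reported, 8 of them with the replicate block, and in 0 of the 576 did the member pass as reported or under the alternative. The largest of these reported changes was 0.37, for Hspb6 with aldosterone in mdx myotubes without pairing, which became -0.01 without mdx aldosterone replicate 3. The replicate block moved the number of members called with aldosterone to 7 in C57 myotubes, 2 in mdx myotubes and 13 in their mean, and to 2 (Hspb3 and Hspb1) for mdx against C57 with aldosterone in myotubes, where the numbers do not pair the samples and 2.52% of all genes passed. It moved the count of members in no other comparison by over 1.5 times. Without the block, the mean of both lines had 2 called members with DESeq2 and 1 without a filter, with 168 and 84 genes called over all. In the paired C57 comparison, 11 members were called without a filter, a setting chosen after seeing the data. It called 1000 genes over all, against 785 with the filter. mdx against C57 with aldosterone gave 3 called members in myotubes with DESeq2 and 3 without a filter, and 2 and 2 in fibroblasts. Genes called over all were 460 and 163 in myotubes, and 544 and 452 in fibroblasts. mdx against C57 fibroblasts in vehicle medium gave 1 called member when only these groups were fitted, with 131 genes called over all. The cause was not tested in these cases. In the paired mean, 7 members were called without C57 culture 1, 8 without mdx culture 1, 8 without mdx culture 2 and 6 without mdx culture 3. The genes called over all fell too, to 1064, 1120, 836 and 739, against 1412 with all cultures. Paired C57 gave 4 without culture 1, with 438 genes called over all, against 785 with all cultures. Paired mdx gave 1 without culture 2 and 0 without culture 3, with 101 and 149 genes over all, against 367. Leaving out 1 library or culture, the counts of members ranged from 4 to 10 in paired C57, 0 to 2 in paired mdx and 6 to 16 in the paired mean, and from 0 to 1 in the unpaired mean. The ranges over all genes were 401 to 857, 101 to 300, 739 to 1713 and 14 to 47. Member counts ranged from 0 to 1 for aldosterone medium in the mean of fibroblasts (1 to 950 genes over all). For mdx against C57 fibroblasts they ranged from 0 to 2 in either medium (93 to 249 genes in vehicle medium, 89 to 170 in aldosterone medium). For mdx against C57 vehicle myotubes they ranged from 0 to 1 (20 to 104 genes). For myotubes against fibroblasts they were 32 to 34 in C57 (12743 to 12964 genes over all) and 33 to 34 in mdx (11839 to 12310 genes). RLE in place of TMM shifted all log2 changes by at most 0.06. The mean and difference comparisons use all libraries of a cell type, so the fit on the compared groups alone was not run for them. Over all genes, DESeq2 called 57 with aldosterone in C57 myotubes, 19 in mdx and 168 in the mean, against 2, 0 and 34 as reported, and 376 and 460 for mdx against C57 myotubes with vehicle and aldosterone, against 57 and 49. In fibroblasts it called 74 with aldosterone medium in C57, 0 in mdx and 293 in the mean, against 0, 0 and 2, and 475 and 544 for mdx against C57 in vehicle and aldosterone medium, against 184 and 205. Depth limits Hspb3 in fibroblasts, with at most 5 counts in a library.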
